A study of Mus musculus with 473 samples.

Results

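Th and the eGFP transcript of its reporter, 2 of the 28952 features of the deposited expression table, were followed in the single cells that had been sorted by that reporter. Th was taken by its Ensembl identifier and eGFP by its own row, and both were chosen with earlier results of these data known. Th encodes tyrosine hydroxylase, the rate-limiting enzyme of catecholamine synthesis, which turns tyrosine into L-DOPA with tetrahydrobiopterin as its cofactor. Ddc then makes dopamine from L-DOPA, Slc18a2 loads dopamine into vesicles, and Slc6a3 takes released dopamine back into the cell. In the mouse, Th is the usual marker of the dopaminergic neurons of the ventral midbrain, the hypothalamus and the glomerular layer of the olfactory bulb, and many cells of the hypothalamus and the bulb that transcribe it are also GABAergic.

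Poly(A) RNA of 473 single cells had been amplified with Smart-Seq2, a full-length method, and 396 cells passed the authors' quality control. All groups carried the Th:EGFP BAC transgene (Tg(Th-EGFP)DJ76Gsat/Mmnc) from a hemizygous father on the outbred Swiss Webster background. In this line regulatory sequence of Th drives enhanced green fluorescent protein from a bacterial artificial chromosome, and the endogenous Th gene is left in place. The groups were midbrain (MB), forebrain (FB, in the labels the hypothalamus) and olfactory bulb (OB) at postnatal day 7 (P7), and MB and FB at embryonic day 15.5 (E15.5). Each P7 group came from the pooled tissue of 5 pups and each E15.5 group from that of 4 embryos, so a group is 1 pool, its cells are not replicates of the age or region, and no test was made between groups. Papain-dissociated cells that excluded propidium iodide were sorted singly by eGFP fluorescence, and P7 tissue, unlike E15.5 tissue, had a longer dissociation followed by a density gradient. The sort was on the protein, so what follows compares a protein gate with the transcripts of the same cells.

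The labels' gene number per cell was compared with the number of genes found in the like-named column, for each of the 5 library plates. A transcript is called found at an FPKM (fragments scaled to the length of the transcript and to the mapped fragments of the library) of 1 or more. On both E15.5 plates and on 1 P7 plate the correlation was at least 0.996. On the P7 plates TH02_16.18.20 and TH02_20.16.18 it was -0.0338 and -0.0519, and it reached 0.999 on each after the columns of these 2 plates were exchanged well by well. The values below therefore rest on the 249 passed cells of the matched plates, 30 of P7 MB, 31 of P7 FB, 16 of P7 OB, 88 of E15.5 MB and 84 of E15.5 FB, and values with the 2 plates exchanged (75, 81 and 68 P7 cells in the same order) are set beside them. Every one of the 249 cells had a neuronal marker (Tubb3, Stmn2, Snap25, Elavl3 or Map2), and none had a marker of noradrenergic cells (Dbh or Slc6a2), which also use Th. At least 1 oligodendrocyte marker (Mbp, Mog or Olig1) was found in 16 of 30 P7 MB, 18 of 31 P7 FB and 4 of 16 P7 OB cells, and in 51 of 88 E15.5 MB and 43 of 84 E15.5 FB cells, most often Mbp, and 0 cells had all 3. Their summed level lay between 0 and 279 FPKM, against 425 to 29833 FPKM for the neuronal markers. An astrocyte marker (Aqp4, Gfap, Aldh1l1 or Slc1a3) was found in 2, 8 and 2 P7 cells and in 3 and 1 E15.5 cells, in the same order of groups. The part of such RNA in the results was not tested. Median gene numbers were 6126.5, 5164 and 3310 per cell in P7 MB, FB and OB, against 6227.5 and 5554.5 in E15.5 MB and FB.

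Th (ENSMUSG00000000214.10) lies on the minus strand of mouse chromosome 7, from 142892752 to 142931128 in GENCODE M21 (GRCm38, the assembly of mm10). Its main transcript Th-201 has 13 exons and 1829 exonic bases and starts at 142900014, while Th-202 and Th-206 start far upstream, at 142931128 and 142931120. The proximal promoter of the endogenous gene is shown as a description, and the sequence of the reporter transgene was not examined. The window shown spans 250 bases before and 50 bases after the start that RefSeq gives (GRCm38.p6, chr7:142899946-142900245, minus strand). Capitals mark a cAMP response element and, upstream of it, an AP-1 motif.
Th promoter: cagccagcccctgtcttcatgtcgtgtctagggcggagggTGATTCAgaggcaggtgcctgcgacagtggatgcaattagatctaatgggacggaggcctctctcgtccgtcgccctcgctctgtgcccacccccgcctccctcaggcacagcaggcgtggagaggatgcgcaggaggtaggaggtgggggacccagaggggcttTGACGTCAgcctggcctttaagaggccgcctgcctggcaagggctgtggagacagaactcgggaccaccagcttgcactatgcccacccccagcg

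The cAMP response element TGACGTCA begins 45 bases before the start, and 1.79% of the 32851 RefSeq promoters of this length hold the same letters on either strand. The AP-1 motif TGANTCA begins at -210 and occurs in 7.81% of the promoters. An E-box, CANNTG, matches once at -199 (72.3% of promoters). The letters TATAAA (13.6% of promoters), AAAGGTCA, a Nurr1 site (1.51%), and TAATCC, a site of bicoid-type homeodomain factors (7.06%), are not in this window. Both strands were searched, no matched motifs overlap, and a match is a description of the letters.

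At P7 nearly all sorted cells had Th, and at E15.5 a minority did. Th was found in 29 of 30 P7 MB cells (96.7%, exact Clopper-Pearson 95% interval 82.8 to 99.9%), 30 of 31 P7 FB cells (96.8%, 83.3 to 99.9%) and 16 of 16 P7 OB cells (79.4 to 100%). Among E15.5 cells, 26 of 88 from MB had it (29.5%, 20.3 to 40.2%), as did 27 of 84 from FB (32.1%, 22.4 to 43.2%). The intervals cover counting error among cells of 1 pool and nothing else. In each group eGFP was found in fewer cells than Th. Its shares were 27 of 30 in P7 MB (90%, 73.5 to 97.9%), 22 of 31 in P7 FB (71%, 52 to 85.8%) and 13 of 16 in P7 OB (81.2%, 54.4 to 96.0%). At E15.5 the reporter transcript, on whose protein the cells had been sorted, was present in 17 of 88 cells from MB (19.3%, 11.7 to 29.1%) and in 13 of 84 from FB (15.5%, 8.51 to 25.0%). With the 2 plates exchanged, eGFP was found in 69 of 75 P7 MB cells, 55 of 81 P7 FB cells and 39 of 68 P7 OB cells (57.4%), and Th in 74, 77 and 67 of them.

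The level of Th was highest in P7 MB by the median cell. Over the 30 P7 MB cells Th was 0.401 FPKM in the lowest cell, 2406 in the median cell and 5350.0 in the highest. P7 OB ran between 2.32 and 4312 around a median of 1845, and P7 FB between 0 and 4569 around a median of 339.8. The 3 P7 groups overlapped over most of their range. In E15.5 MB the median cell was listed at 0 and the highest reached 26079.6 FPKM, and in E15.5 FB the median was also 0 and the highest 2911. The highest single cell for Th was thus in E15.5 MB, the group with the smallest share of cells that had it. Among cells with Th, the median was 2407 FPKM in P7 MB, 410.0 in P7 FB, 1845 in P7 OB, 707 in E15.5 MB and 267 in E15.5 FB.

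By the median over all cells of the matched plate, eGFP had the same order of P7 regions as Th, with MB first, then OB, then FB. Its median was 766 FPKM in P7 MB (0 to 1522), 36.1 in P7 FB (0 to 2840) and 79.97 in P7 OB (0 to 408). In both E15.5 groups the median cell was at 0, and the highest cells were at 13682 FPKM in MB and 2324 in FB. The highest bulb cell for eGFP was the lowest such maximum of the 5 groups. Among cells with eGFP, FB came before OB at P7 on the matched plate. The medians were 800.0 FPKM in P7 MB, 139 in P7 FB, 111 in P7 OB, 1272 in E15.5 MB and 234 in E15.5 FB. Both orders of FB and OB turned with the 2 plates exchanged. The medians over all cells were then 20.98 FPKM in P7 FB and 14.52 in P7 OB. Among cells with eGFP they were 38.98 in P7 FB and 59.99 in P7 OB. P7 MB stayed first, at 265.7 over all cells and 298.7 among cells with eGFP.

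**Figure D1:**
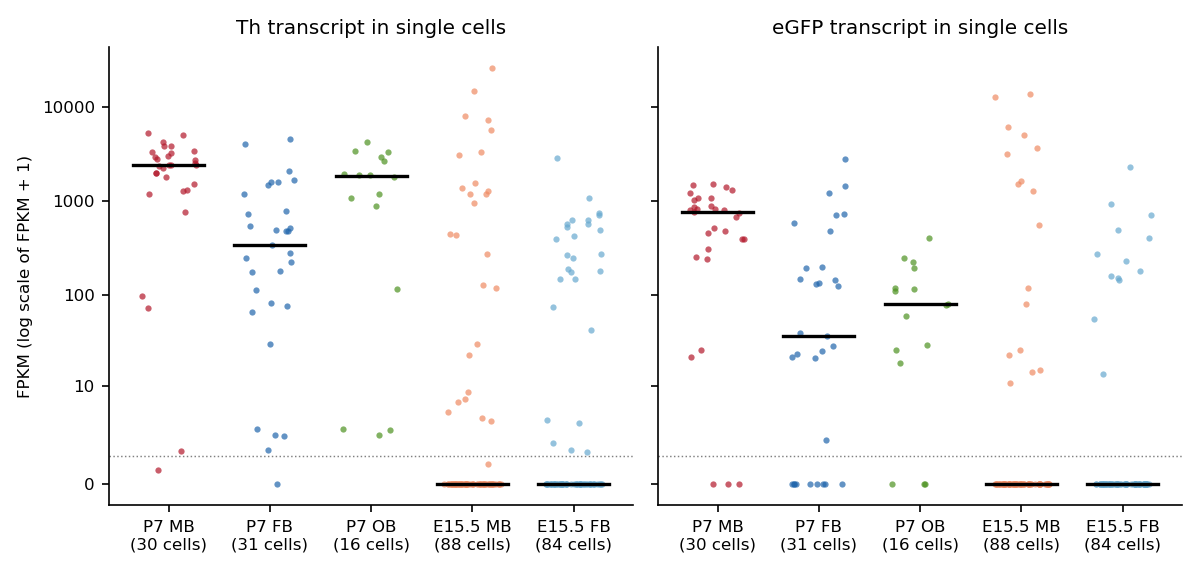
Th (left) and eGFP (right) in every passed cell of the matched plates, in FPKM on a log scale of FPKM + 1, by age and region. Each point is a cell, black bars are medians and the dotted line is the FPKM of 1 at which a transcript counts as found; most E15.5 cells lie at 0 for both, while the highest Th cell, at 26079.6, is one of E15.5 MB.

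By group mean, Th was 2341 ± 1399 FPKM in P7 MB, 781 ± 1120 in P7 FB, 1725 ± 1357 in P7 OB, 882 ± 3416 in E15.5 MB and 137 ± 378 in E15.5 FB (SD over cells). eGFP averaged 685 ± 465, 301 ± 598 and 107 ± 113 FPKM in P7 MB, FB and OB, and 568 ± 2195 and 72.7 ± 290.4 in E15.5 MB and FB. A single cell gave 33.6% of all Th in E15.5 MB, and without it the mean was 592. Ranked by mean over all features, Th stood 6th in P7 MB, 12th in P7 OB, 59th in P7 FB, 102nd in E15.5 MB and 1691st in E15.5 FB. Of all features, 101 had a mean at least as high as that of Th in E15.5 MB, and 0 of them were found in fewer cells, with a median of 100% of cells. Th in E15.5 MB was thus a high mean carried by few cells.

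Between regions, P7 MB had more Th than P7 FB by a log2 fold of 1.58 and more eGFP by 1.18 (log2 of (mean + 1)/(mean + 1)), where 10.8% of 13041 features with a mean of at least 1 in either group showed at least a 2-fold higher mean in P7 MB. P7 MB and P7 OB differed in Th by a log2 fold of 0.44 and in eGFP by 2.66, where 29.8% of features showed at least a 2-fold higher mean in P7 MB. Between P7 FB and P7 OB the members went opposite ways: the log2 fold was -1.14 for Th and 1.48 for eGFP, beside 18% of features at least 2-fold lower and 31.1% at least 2-fold higher in P7 FB. By the difference of the mean log2(FPKM + 1), which weighs each cell alike, eGFP was -0.31 between P7 FB and P7 OB, so its direction there depends on the scale, and the highest FB cell held 30.4% of all eGFP of that group. E15.5 MB exceeded E15.5 FB by 2.68 in Th and 2.95 in eGFP (8.46% of features at least 2-fold higher in MB and 9.41% at least 2-fold lower), but the shares of cells were alike, and by the mean of log2(FPKM + 1) the differences were 0.17 and 0.48.

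Between ages, P7 MB over E15.5 MB gave a log2 fold of 1.41 for Th and 0.27 for eGFP, where 5.23% of features were at least 2-fold higher and 58.4% at least 2-fold lower at P7. In FB the folds were 2.50 for Th and 2.04 for eGFP (6.73% of features at least 2-fold higher and 58.8% at least 2-fold lower at P7). The median over all features was -1.18 in MB and -1.20 in FB. The summed FPKM per cell differed between the ages as well, with medians of 493126 to 545503 in the P7 groups and 972789 to 1054300 in the E15.5 groups. After each cell was rescaled to the same total, the log2 folds were 2.86 and 1.66 in MB and 3.65 and 3.05 in FB for Th and eGFP, with medians over all features of -0.28 and -0.25. With the 2 plates exchanged and no rescaling, the folds were 0.76 for Th and -0.48 for eGFP in MB, and 1.59 and 0.97 in FB. The direction of the mean FPKM of the reporter between the ages in MB thus depends on the plates and the scaling. As a mean share of the cell's summed FPKM, eGFP in MB was 0.106%, 0.130% and 0.0820% on the 3 P7 plates. On the E15.5 plates it was 0.0683% and 0.0149%. Age was confounded with the dissociation protocol, the sort and the library plates, and these cannot be told apart from it here. Of the 12 differences of means in these 6 comparisons, 2 exceeded the larger SD of their pair. These were Th between P7 MB and P7 FB and eGFP between P7 MB and P7 OB. With the 2 plates exchanged 0 of 12 did. After rescaling of the matched plates 3 of 12 did, the same 2 and Th between P7 MB and E15.5 MB (3267 ± 1700 against 448 ± 1328).

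Of the 13 clusters in the labels, which were made from these same cells, E15.MB.2 had the highest mean of both transcripts and E15.MB.1 the lowest. In the 20 cells of E15.MB.2, Th averaged 3779.6 ± 6476 FPKM and eGFP 2488 ± 4128, against 29.6 ± 132 and 3.07 ± 15.2 in the 68 cells of E15.MB.1. Th was found in 13 of the 20 (65%, 40.8 to 84.6%), and in 13 of the 68 (19.1%, 10.6 to 30.5%). E15.MB.2 was split: 7 of its cells were listed at 0 for Th, and the lowest of the others was at 447 FPKM. The 13 cells of E15.MB.1 that had Th lay far lower, with a median of 22.3 FPKM.

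The midbrain clusters of P7 spanned a wider range of mean Th than the FB clusters did. All 15 cells of P7.MB.1 had both transcripts, with Th between 1812 and 5350.0 FPKM (mean 3004 ± 1078) and eGFP between 402 and 1522 (975 ± 358). P7.MB.4 had Th between 761 and 4229 in 7 cells and eGFP in 6 of them (442 ± 316). In P7.MB.3 the 4 cells had Th at 1317, 1299.9, 3006 and 1195 FPKM and eGFP at 1080.2, 310.0, 901 and 479. The 4 cells of P7.MB.2 stood apart, with Th at 73.7, 0.401, 96.9 and 1.24 FPKM and eGFP at 21.1, 0, 25.4 and 0. Their Th was below that of every cell of the other 3 midbrain clusters, as was their eGFP but for 1 P7.MB.4 cell listed at 0. With the 2 plates exchanged this cluster had 11 cells, Th found in 10 and at most 197 FPKM, while the lowest of the other P7 MB cells was at 506. For eGFP the ranges then overlapped, with up to 43.5 FPKM in P7.MB.2 and 28.1 in the lowest P7.MB.4 cell that had it.

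In the bulb, P7.OB.1 was the lowest cluster for Th by mean, and on the matched plate not for eGFP. Its 5 cells had Th at 2.82, 2.32, 2.79, 1201 and 116 FPKM and eGFP at 196, 0, 59.99, 408 and 25.7. The 5 cells of P7.OB.2 had Th at 3429, 1088, 1899, 4312 and 2961 FPKM and eGFP at 79.5, 111, 250, 80.4 and 119. Of the 3 P7.OB.1 cells lowest in Th, 2 had eGFP. After the exchange of the 2 plates, P7.OB.1 was the lowest bulb cluster for eGFP too, at a mean of 42.6 ± 98.5 FPKM with eGFP in 9 of 20 cells, against 78.8 ± 181 in P7.OB.2 (20 of 33) and 49.7 ± 62.8 in P7.OB.3 (10 of 15), differences smaller than the SD over cells. In P7.OB.3 Th lay between 899 and 3322 FPKM in 6 cells, and eGFP was found in 4 of them with a highest value of 228. The 2 FB clusters of P7 had like means of Th (729.9 ± 634 in P7.FB.1 and 805 ± 1303 in P7.FB.2), yet the lowest of 10 cells was at 227 in P7.FB.1, while P7.FB.2 lay between 0 and 4569 with a median of 177. At E15.5 Th averaged 147 ± 434 in E15.FB.1 (18 of 60 cells) and 110.0 ± 177 in E15.FB.2 (9 of 24 cells), and eGFP was found in 10 and 3 of these cells.

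By mean Th the clusters ran in the order E15.MB.2, P7.MB.1, P7.OB.2, P7.MB.4, P7.OB.3, P7.MB.3, P7.FB.2, P7.FB.1, P7.OB.1, E15.FB.1, E15.FB.2, P7.MB.2 and E15.MB.1. Of the 12 steps between neighbours in that order, 0 exceeded the larger SD of the pair, and the same held for the 12 steps in the order by eGFP. With the 2 plates exchanged, 1 of 12 steps in Th did, that of P7.MB.3 over P7.FB.1 (1147 ± 714 against 424 ± 467).

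**Figure D2:**
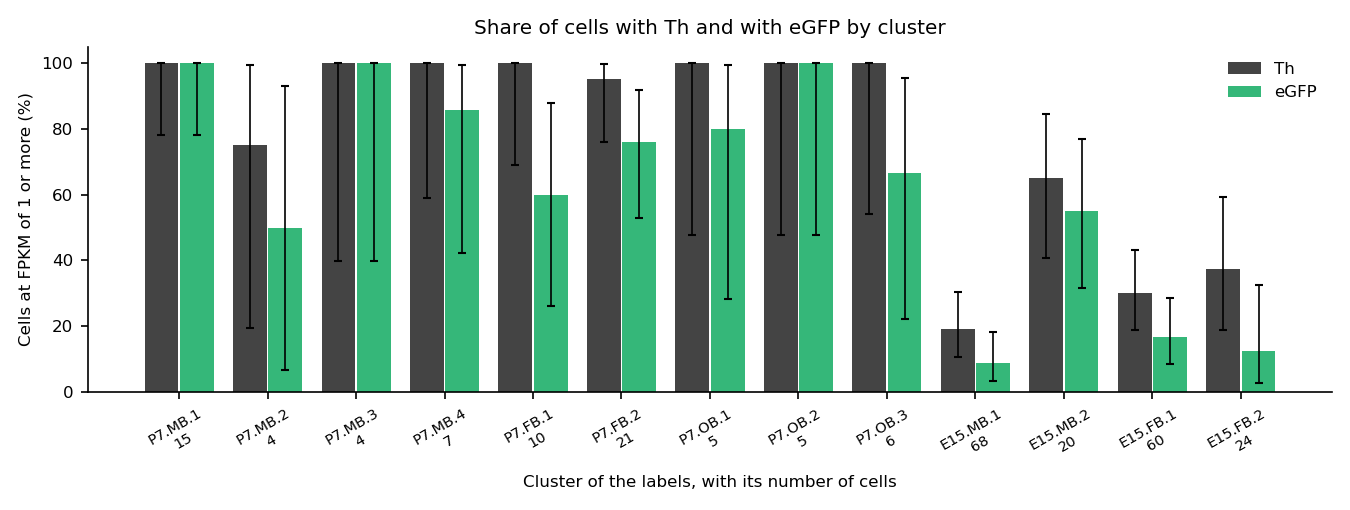
Share of cells at FPKM of 1 or more for Th (dark) and eGFP (green) in each of the 13 clusters of the labels, with the number of cells under its name and exact 95% intervals as bars. Th is at 75% or more in all P7 clusters and at 19.1 to 65% in the E15.5 clusters, and eGFP does not exceed Th in any cluster.

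Cell by cell, the calls for the gene and the reporter were the same in 74.2 to 93.3% of the cells of each group. Both were found in 27 of 30 P7 MB cells, Th alone in 2, eGFP alone in 0 and neither in 1, so that the calls were the same in 93.3% (77.9 to 99.2%). In P7 FB the counts were 22 with both, 8 with Th alone, 0 with eGFP alone and 1 with neither (74.2% alike, 55.4 to 88.1%). P7 OB had 13 with both and 3 with Th alone (81.2%, 54.4 to 96.0%). The P7 disagreements of the matched plate were all of one kind, Th without eGFP. At E15.5 most of the likeness came from cells with neither: E15.5 MB had 14 with both, 12 with Th alone, 3 with eGFP alone and 59 with neither (83% alike), and E15.5 FB had 10, 17, 3 and 54 (76.2%). With the 2 plates exchanged, the calls were the same in 93.3% of P7 MB cells, 70.4% of P7 FB cells and 58.8% of P7 OB cells.

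Cells with Th alone had a lower median of Th than cells with both in all 5 groups, and the ranges overlapped in each. Cells with both and cells with Th alone had medians of 2439.6 and 1198 FPKM in P7 MB, 1899 and 899 in P7 OB, and 606 and 181 in E15.5 FB. Only 2 P7 MB cells, at 1.24 and 2394 FPKM, and 3 P7 OB cells had Th alone. Within clusters the order was not uniform. It was the reverse in P7.FB.1 (501 with both, 615 with Th alone) and P7.OB.3 (1934 and 2110), and the same in the other clusters that held both classes. In P7 FB, Th was between 2.36 and 4569 FPKM, with a median of 483, in the 22 cells with eGFP, and between 1.30 and 1669, with a median of 196, in the 8 cells without it. In E15.5 MB the 14 cells with both lay between 127 and 26079.6 FPKM of Th, and the 12 cells with Th alone had a median of 15.4 and a highest value of 1396. In E15.5 FB the highest Th cell of the group, at 2911 FPKM, was listed at 0 for eGFP. Cells with eGFP alone were at 10.9 to 22.5 FPKM in 3 E15.5 MB cells and 55.4 to 234 FPKM in 3 E15.5 FB cells. The matched P7 plate had 0, and with the 2 plates exchanged 1 P7 FB cell had eGFP alone, at 32.6 FPKM.

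Spearman's rho between Th and eGFP over the cells of a group was 0.68 in P7 MB (30 cells), 0.54 in P7 FB (31), 0.15 in P7 OB (16), 0.68 in E15.5 MB (88) and 0.50 in E15.5 FB (84). These are descriptions over cells of 1 pool that share their library plates, the scaling of their own cell and, at E15.5, many zeros. In P7 MB, Th also followed the summed FPKM of the cell (rho 0.70), and eGFP did less so (0.45). After each cell was rescaled to the same total, the correlation of the members in P7 MB was 0.59 and in the other groups it stayed between 0.13 and 0.69. After the exchange of the 2 plates, rho was 0.80 in P7 MB, 0.50 in P7 FB and 0.34 in P7 OB. These values pool plates that differ in their level of FPKM. Plate by plate (TH02_16.18.20, TH02_18.20.16 and TH02_20.16.18), rho was 0.84, 0.68 and 0.42 in P7 MB. It was 0.32, 0.54 and 0.51 in P7 FB, and 0.15, 0.15 and 0.34 in P7 OB. Within P7 FB, rho was 0.82 over the 21 cells of P7.FB.2 and 0.04 over the 10 of P7.FB.1, and 0.66 and 0.13 with the 2 plates exchanged. Within P7 OB it was 0.70 in P7.OB.1 and -0.60 in P7.OB.2, over 5 cells each, and 0.25 and 0.38 over the 20 and 33 cells with the 2 plates exchanged. E15.MB.2 had the highest value of the clusters with 5 or more cells (0.89 over 20 cells).

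**Figure D3:**
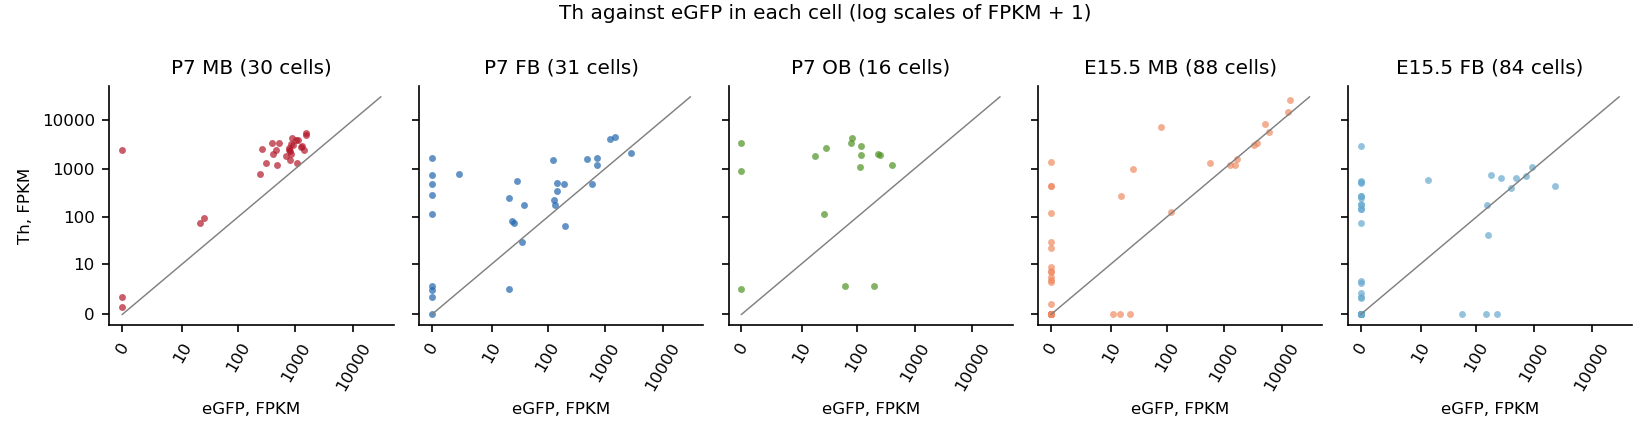
Th (vertical) against eGFP (horizontal) in every passed cell of the matched plates, 1 panel per group, both in FPKM on log scales of FPKM + 1; the line marks equal values. Most P7 MB points form a cloud above the line, P7 OB points spread along the Th axis, and of the 14 E15.5 MB cells with both transcripts, 3 lie far above the line, at log2 ratios of 6.51, 5.23 and 4.16, while the others lie between -0.38 and 1.20.

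The ratio of Th to eGFP within a cell does not depend on how that cell was scaled. The transcript length that was used for eGFP is not given in the sources used here, so the ratio is one of FPKM values and not of molecules, and only its differences between groups can be read. In cells with both, its median was 3.49 in P7 MB (27 cells), 2.75 in P7 FB (22 cells) and 9.77 in P7 OB (13 cells), against 1.10 in E15.5 MB (14 cells) and 1.15 in E15.5 FB (10 cells). On the log2 scale the medians were 1.80, 1.46, 3.29, 0.14 and 0.20, and the means were 1.77 ± 0.66, 1.48 ± 2.32, 2.74 ± 3.91, 1.30 ± 2.26 and 0.50 ± 2.16 (SD over cells), in the same order of groups. Between any 2 groups the difference of these means was smaller than the larger SD of the pair. P7 MB was the tightest group, from 0.29 to 3.30 on the log2 scale, and P7 OB the widest, from -6.12 to 6.63. The FPKM of eGFP exceeded that of Th in 0 of 27 P7 MB cells, 5 of 22 P7 FB cells, 2 of 13 P7 OB cells, 6 of 14 E15.5 MB cells and 4 of 10 E15.5 FB cells. These counts can be set against each other between groups, but they do not tell which transcript had more molecules.

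By library plate, with the 2 plates exchanged, the median ratio was 4.59, 3.49 and 4.84 in P7 MB, 4.29, 2.75 and 2.21 in P7 FB, and 16.5, 9.77 and 18.0 in P7 OB (TH02_16.18.20, TH02_18.20.16 and TH02_20.16.18 in this order). At E15.5 it was 1.36 and 1.01 in MB and 1.15 and 0.980 in FB (TH01_14.15 and TH01_15.14). The bulb had the highest median on each of the 3 P7 plates, and each P7 plate lay above both E15.5 plates of the same region. The FPKM level itself moved with the plate. Mean Th in P7 MB was 979, 2341 and 876 on these plates, where the median summed FPKM per cell was 205564, 493126 and 268038. As a mean share of the cell's summed FPKM, Th was 0.464%, 0.435% and 0.330% on them, and eGFP 0.106%, 0.130% and 0.0820%.

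Among clusters, the 11 E15.MB.2 cells with both transcripts had a median ratio of 0.971, lay between -0.38 and 6.51 on the log2 scale, and had a higher FPKM of eGFP than of Th in 6 cells. The 3 E15.MB.1 cells with both had a median of 17.9. In the bulb the median was 24.9 in P7.OB.2 (5 cells) and 39.6 in P7.OB.3 (4 cells), against 0.370 in P7.OB.1 (4 cells). With the 2 plates exchanged these were 23.8 (20 cells), 18.0 (10 cells) and 2.81 (9 cells). In the midbrain the clusters were closer, at 3.31 in P7.MB.1 (15 cells), 2.89 in P7.MB.3 (4 cells) and 5.65 in P7.MB.4 (6 cells), and at 3.92, 2.74 and 6.39 with the 2 plates exchanged.

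**Figure D4:**
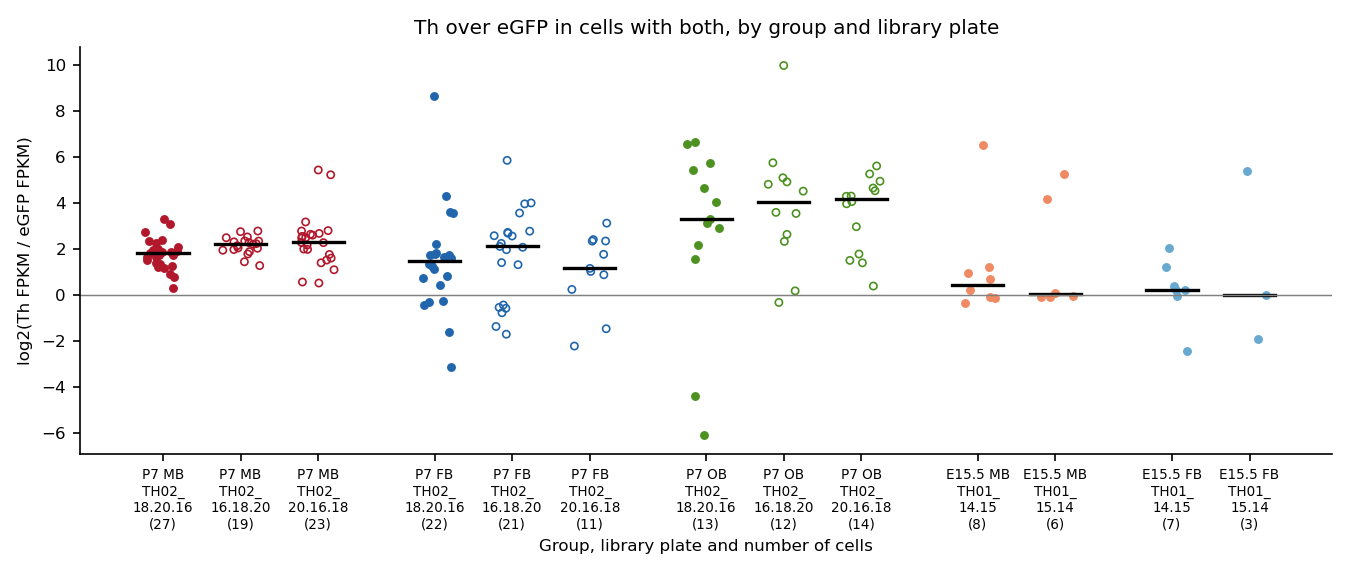
Log2 of Th FPKM over eGFP FPKM in cells with both transcripts, by group and library plate, with the number of cells in brackets. Filled points are matched plates, open points the 2 plates whose columns were exchanged well by well, and bars are medians; P7 OB medians lie at 3.29 or more on every plate and E15.5 medians at 0.44 or less.

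Low values of Th at P7 were also found in cells that failed quality control. Of the passed P7 cells counted as having Th, 1 in MB, 4 in FB and 3 in OB were between 1 and 10 FPKM. Among the cells of the same plate that failed quality control, Th was found in 5 of 5 P7 MB cells, 3 of 5 P7 FB cells and 8 of 8 P7 OB cells, and 6 of those 8 OB cells were between 1 and 10, with a median of 2.03. Of the failed E15.5 cells, 0 of 7 from MB and 2 of 9 from FB had Th. At a minimum of 10 FPKM, Th was found in 28 of 30 P7 MB, 26 of 31 P7 FB and 13 of 16 P7 OB cells, against 20 of 88 E15.5 MB and 22 of 84 E15.5 FB cells. Gene number per cell moved little with the calls at E15.5. Its median was 5860 in E15.5 MB cells with both transcripts and 6241 in cells with neither, and 5440.5 and 5609 in the same classes of E15.5 FB. Values of exactly 0 also occurred in housekeeping genes, in 0.758% of E15.5 MB and 1.59% of E15.5 FB values, so a value of 0 is described as listed at 0.

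In E15.5 MB, genes of dopaminergic neurons were found in a larger share of the cells with both transcripts than of those with neither, and these classes lay mostly in different clusters. Of the 14 cells with both, 11 were of E15.MB.2, while 52 of the 59 with neither were of E15.MB.1. Ddc, aromatic L-amino acid decarboxylase, was found in 11 of 14 E15.5 MB cells with both, 4 of 12 with Th alone and 8 of 59 with neither. Nr4a2, a nuclear receptor needed for midbrain dopaminergic neurons, was found in 11, 4 and 12 of these cells, and Pitx3, a homeodomain factor of the same neurons, in 10, 2 and 8. Within E15.MB.1, Ddc, Nr4a2 and Pitx3 were found in 0 of its 3 cells with both, and in 4, 5 and 3 of its 52 cells with neither. Slc6a3 and En1 were also found in 0 of these 3, and in 2 and 9 of the 52. Slc18a2 was found in 1 of the 3 and in 19 of the 52. Gch1 and Slc10a4 went the other way, each found in 2 of the 3, and in 4 and 8 of the 52. A glutamatergic marker (Slc17a6 or Slc17a7) was found in 5 of 14 E15.5 MB cells with both and in 49 of 59 with neither. It was also found in 9 of 12 with Th alone and 3 of 3 with eGFP alone. A GABAergic marker (Gad1, Gad2 or Slc32a1) was found in 3 of 14 cells with both and 13 of 59 with neither. In E15.5 FB, Ddc was found in 7 of 10 cells with both, 8 of 17 with Th alone and 10 of 54 with neither. A GABAergic marker was found in 10, 17 and 42 of these E15.5 FB cells. Gch1 was found there in 0 of 10 cells with both and 2 of 54 with neither. The 8 genes followed here (Ddc, Slc18a2, Slc6a3, Slc10a4, Gch1, Nr4a2, Pitx3 and En1) were chosen for this split after other values had been seen.

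The 7 cells of E15.MB.2 without either transcript were not without dopaminergic genes. In the 11 cells of this cluster with both, Ddc and Nr4a2 were found in 11, Pitx3 in 10 and Slc18a2 in 9, with medians of 2448 FPKM for Ddc and 1049 for Nr4a2. In the 7 cells with neither, Nr4a2 was found in all 7, Slc18a2 in 6, Pitx3 in 5 and Ddc in 4, with medians of 392 FPKM for Ddc and 457 for Nr4a2. Slc6a3 was found in 9 of the 11, at up to 8579 FPKM, and in 2 of the 7, at no more than 35.6.

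Of the 34 genes of the dopamine pathway and of the transcription factors known for Th neurons, all were measured, and those found in at least 20% of a group's cells were set against Th by Spearman's rho over cells. In P7 MB 14 of 19 such genes had a rho above 0.3 with Th, where 19.0% of all 9815 features found that often did. In P7 FB 7 of 13 did (6.31% of features), in P7 OB 9 of 14 (23.0%), in E15.5 MB 7 of 15 (2.07%) and in E15.5 FB 1 of 15 (1.18%). With eGFP the counts were 12 of 19 in P7 MB (10.4%), 6 of 13 in P7 FB (4.29%), 4 of 14 in P7 OB (8.68%), 7 of 15 in E15.5 MB (0.886%) and 2 of 15 in E15.5 FB (0.963%). Members of the list share their cells and are not independent, and no test was made.

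Among the makers of the cofactor, Gch1, the first enzyme of tetrahydrobiopterin synthesis, had a rho of 0.62 with Th and 0.49 with eGFP in P7 MB, where it was found in 22 of 30 cells. Qdpr, which recycles the cofactor, was at 0.39, 0.42 and 0.50 with Th in P7 MB, FB and OB but at -0.01 in E15.5 MB and 0.10 in E15.5 FB. Spr, sepiapterin reductase, was at 0.16 in P7 MB and -0.30 in P7 FB. For the next step of synthesis, Ddc was the gene with a rho above 0.3 with Th in all 5 groups (0.72, 0.47 and 0.39 in P7 MB, FB and OB, against 0.60 and 0.38 in E15.5 MB and FB). Dbh, which turns dopamine into noradrenaline, was listed at 0 in every cell of all groups, and Pnmt, which makes adrenaline, was found in 1 P7 FB cell.

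Of the transporters, Slc18a2, the vesicular monoamine transporter, followed Th with 0.79 in P7 MB, 0.43 in P7 FB and 0.54 in P7 OB, against 0.35 in E15.5 MB and 0.25 in E15.5 FB. Slc6a3, the dopamine transporter, had a rho with Th of 0.61 in P7 MB and 0.72 in P7 OB, and with eGFP of 0.22 and 0.23. Slc10a4, a vesicle protein of monoaminergic and cholinergic neurons, was at 0.73 with Th in P7 MB, 0.50 in P7 FB and 0.56 in E15.5 MB. The autoreceptor gene Drd2 was at 0.58 with Th and 0.21 with eGFP in P7 MB, and at 0.28 and 0.43 in P7 FB. Maoa, a monoamine oxidase that breaks dopamine down, was at 0.52 with Th in P7 MB and 0.37 in P7 FB.

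Of the transcription factors found in at least 20% of cells, 4 of 7 midbrain factors had a rho above 0.3 with Th in P7 MB, 4 of 4 in E15.5 MB, and 4 of 5 bulb factors in P7 OB. Among all features found that often, 19.0%, 2.07% and 23.0% did in these 3 groups. The P7 OB values rest on 16 cells of clusters with low and with high Th, and the midbrain values join such clusters too. Mean Th was 43.1 FPKM in P7.MB.2 and 3004 in P7.MB.1, and 29.6 in E15.MB.1 and 3779.6 in E15.MB.2. The part of this split in the rho values was not tested. In the midbrain Nr4a2 (0.49 with Th in P7 MB and 0.51 in E15.5 MB), En1 (0.44 and 0.54) and Pitx3 (0.37 and 0.48) were above 0.3 at both ages, and Lmx1a was at 0.07 in P7 MB and 0.45 in E15.5 MB. With eGFP, En1 reached 0.71 in P7 MB, above the 0.68 of Th itself. In the bulb Meis2 (0.77), Sall3 (0.61), Pax6 (0.60) and Etv1 (0.38), all known from the specification of bulb interneurons, were above 0.3 with Th, and with eGFP they were at -0.14, 0.31, 0.36 and 0.00295. In P7 FB, Dlx2 was at 0.34 and Isl1 at -0.27 with Th. In E15.5 FB 0 of 8 factors reached 0.3 (1.18% of all features were above it), with Isl1 at 0.28 the highest.

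**Figure D5:**
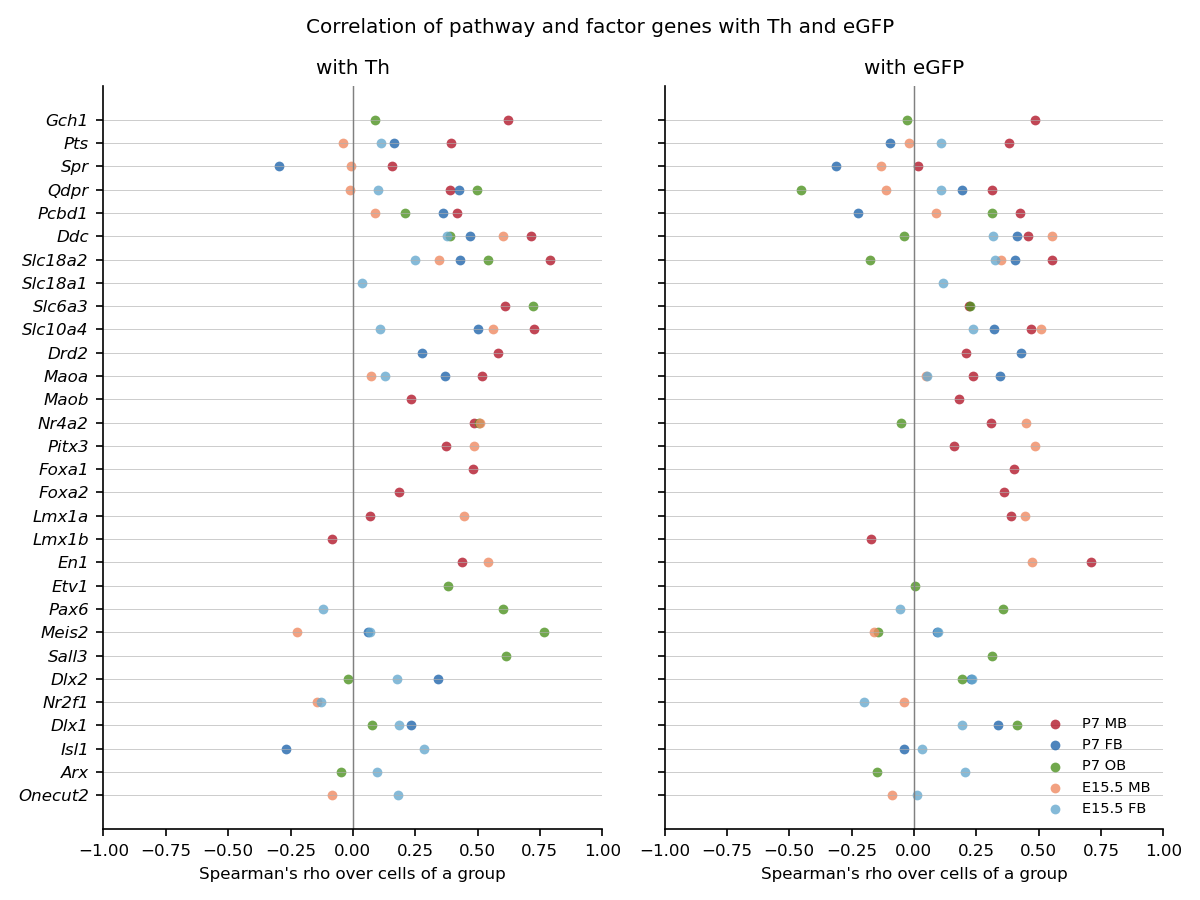
Spearman's rho of each pathway or factor gene found in at least 20% of a group's cells with Th (left) and with eGFP (right), over the cells of that group; each point is a gene in a group. Ddc lies above 0.3 in all groups for Th, and the bulb points move left from the Th panel to the eGFP panel for Meis2, Slc18a2, Slc6a3 and Qdpr.

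Over all 249 cells, among 11484 features found in at least 10% of them, eGFP was the feature most like Th (rho 0.77) and Th the feature most like eGFP. The next most like Th were Slc6a3 (0.69), Cpne7 (0.65), Ddc (0.62), Aldh1a1 (0.58), Chrnb3 (0.57), Chrna6 (0.56), Slc18a2 (0.53), Ntsr1 (0.52) and C130021I20Rik (0.52). Aldh1a1 encodes a retinaldehyde dehydrogenase, Chrnb3 and Chrna6 are nicotinic receptor subunits of dopaminergic neurons, and Ntsr1 is a neurotensin receptor. For eGFP they were Slc6a3 (0.62), Ddc (0.58), Cpne7 (0.55), Chrnb3 (0.55), C130021I20Rik (0.53), Aldh1a1 (0.53), Drd2 (0.53), Gch1 (0.53) and Slc10a4 (0.52). These values mix differences between groups with differences within them. Within groups, the other member ranked first for each in both E15.5 groups. In P7 MB, eGFP ranked 17th of 9816 features for Th, after Slc18a2 (0.79), Cplx2 (0.79) and Rnasek (0.74) at the top, and Th ranked 4th for eGFP, after En1 (0.71), Cyb561 (0.70) and Vgf (0.68).

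In P7 FB each member ranked 8th of 8669 features for the other. The features most like Th there were Fabp7 (0.63), Rint1 (0.59) and Atg101 (0.59), and those most like eGFP were Pqbp1 (0.58), Sox4 (0.58) and Pcdh15 (0.57). In P7 OB the other member ranked 2652nd of 6350 for Th and 1382nd for eGFP. Lgr5 (0.92), Ndrg4 (0.91) and Mt1 (0.90) were most like Th in these 16 cells, and Atrn (0.79), Znrf2 (0.77) and Rubcn (0.69) most like eGFP. At E15.5, after the other member, Ddc (0.60) and Mcc (0.58) followed for Th in MB and Braf (0.44) and Psap (0.42) in FB, and C130021I20Rik (0.58) and Mical2 (0.58) for eGFP in MB and Vgll4 (0.49) and Kctd20 (0.45) in FB.

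Of the 10 features within 200 kb of Th on chromosome 7, 3 had a mean of 1 or more in any group: Cd81, a tetraspanin gene, Tssc4 and the processed transcript R74862. Cd81 averaged 252, 285 and 219.9 FPKM in P7 MB, FB and OB, against 322 and 369 in E15.5 MB and FB, and was found in at least 92.9% of the cells of each group. Its rho with Th was 0.44 in P7 MB and 0.09 in E15.5 MB. Ins2, the insulin gene on the same strand as Th, was listed at 0 in every group.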

How the data were processed

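Single-cell RNA of Th:EGFP-sorted neurons was analysed from 1 deposited table. Its values are FPKM as the authors deposited them, and the submitters' processing notes name HISAT2, Cuffnorm and the build mm10; versions, the eGFP sequence used and the read depth are not given in the sources used here. FPKM is not a count, so no count test was run, and gene number per cell stands in for depth. Identifiers of 28636 of 28952 features were given symbols through GENCODE M21.

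Cells were grouped by age and region in the labels and kept when they passed the authors' quality control on a plate whose gene numbers matched the labels (correlation of at least 0.9). That left out 190 cells, 147 of them passed, of 2 P7 plates. A transcript was found at FPKM of 1 or more. Intervals of shares are exact 95% ones (Clopper-Pearson) and span counting error alone. Folds are log2((mean + 1)/(mean + 1)). Each group is 1 pool of animals, so neither tests between groups nor standard errors are given. No doublet caller was run, since wells were filled by sorting. Python 3.11.15, pandas 2.3.3 and scipy 1.17.1 were used, and correlations and folds were tested on simulated data.

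Named were Th and eGFP in every group and cluster, the genes of the pathway list, and the features most like each member: the 10 with the highest Spearman's rho among features found in at least 10% of the analysed cells, and the 3 highest per group among those found in at least 20%. The members and lists were chosen with earlier results of these data known. Some genes of these lists are not reported here. Alternatives were other minimums of FPKM, other scalings, each plate alone, the exchanged plates and the columns by name.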

Additional observations from a re-analysis of the deposited data

Results flagged for a closer look

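In cells that did not pass quality control, which are left out of the group values, Th was found in 100% of the P7 MB cells (5 of 5) and 100% of the P7 OB cells (8 of 8). These shares were flagged for lying above 60% and 37.5%, a rough limit for a count of 0 (3 over the number of cells). Th was also found in 96.7% and 100% of the passed cells of these groups, so the flag does not set failed cells apart from passed ones. In the 5 MB cells Th lay between 1.96 and 2053 FPKM with a median of 1519. In the 8 OB cells it lay between 1.17 and 2068 FPKM with a median of 2.03, and 1 cell held 96.3% of the total, while eGFP was found in 3 of them. The source of these values was not tested.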

How the results depend on the processing

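Under the alternatives, 223 values moved by less than a set allowance, 27 moved by more, and 1 fold of at least 2 changed sign. The allowance was the exact interval for shares, 1 on the log2 scale for folds, and the SD over cells for means and ratios. An SD over cells is wide and is no error of a mean. A mean eGFP in P7 MB of 303 FPKM by column name, against 685, thus counted as unmoved. The share of P7 MB cells with Th was 100% at any value above 0. With all 3 P7 plates read by column name, the share of P7 MB cells with eGFP was 61.3% and the likeness of calls 68%. On plate TH01_15.14 alone, 7.32% of the E15.5 FB cells had eGFP. The log2 fold of eGFP between P7 FB and P7 OB was -0.31 by the mean of log2(FPKM + 1), against 1.48 by the means. The cause was not tested. The others that moved were 16 folds, 4 correlations, 1 share of cells with neither and the gene lists most like each member: of the 10 most like Th and eGFP over cells, 4 and 2 were also among the 10 over cluster means. Sign also turned in values near 0: the log2 fold of eGFP between P7 MB and E15.5 MB was -0.48 with the 2 plates exchanged and -0.90 by column name, and the median log2 ratio in E15.5 FB was -0.03 on plate TH01_15.14 alone. The median log2 ratio moved by less than its SD over cells in 23 alternatives, chosen after seeing the data; a minimum of 10 FPKM left it the same in 4 of the 5 groups. No paired analysis was possible because cells of different groups share no replicate: a group is 1 pool of animals, and replicate numbers only name cells. Depth is unknown, P7 values rest on 1 plate, and a value of 0 may be a failed estimate.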
